A study of Mus musculus with 2 samples.

Results

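The genes described were 10 members of interleukin 6 (IL6) family signalling and of the C/EBP transcription factors, of the 32285 genes listed in both libraries. They were the ligands *Il6* and *Lif*, the receptor chains *Il6ra*, *Lifr*, *Osmr* and *Il6st*, the transducer *Stat3*, the inhibitor *Socs3* and the transcription factors *Cebpb* and *Cebpd*. The members were selected by symbol with earlier results of these same libraries known, so their values are given as a description, without a test. Unique molecular identifiers (UMIs, 1 for each captured transcript molecule) of each symbol were summed per cell class and library.

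IL6 family cytokines signal through receptors that share gp130, the product of *Il6st*. Receptor-bound JAK kinases phosphorylate STAT3, which enters the nucleus and induces *Socs3*, and the SOCS3 protein in turn binds the receptor and its kinases and dampens the signal. C/EBPβ and C/EBPδ act beside STAT3 on acute phase and inflammatory genes, the *Il6* gene among them, and in the lung these factors are known for responses to injury and infection.

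Lung cells of 1 *Gli1 HHIPCKO* mouse and 1 control mouse were profiled by droplet single-cell RNA sequencing at P14. Both mice were *Gli1 creERT/+* with *Hhip* floxed on both alleles, so the control carried the Cre and the floxed gene too. Tamoxifen was given to the *Gli1 HHIPCKO* mouse from birth and oil to the control. The Cre is driven by the *Gli1* promoter, so deletion was directed to *Gli1*-expressing stromal cells and not to AT2s. Sorted stromal and epithelial cells were mixed for each library, and the sort was set against CD31+ endothelial and CD45+ immune cells. The study's description names a 5′ kit and the sample labels a 3′ kit, so which end of a transcript was counted is not settled here. The control library held 10999 cell barcodes with 43291709 UMIs and a median of 3531 UMIs per cell. The *Gli1 HHIPCKO* library held 12350 barcodes with 52338969 UMIs and a median of 3720. Both libraries shared 193 barcodes.

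*Hhip*, the deleted gene, was read first as a check of the labels. In myofibroblast-like cells it was at 1133 CPM (counts of the gene scaled to the UMIs of the class, as parts per mega-UMI) in the control library and 311 CPM in the *Gli1 HHIPCKO* library, 3.65-fold lower. These UMIs count the whole gene and do not show whether the floxed part is missing from a transcript. Both libraries also differed in sex-linked genes. *Xist* had 0 UMIs in control myofibroblast-like cells and 316 CPM in the *Gli1 HHIPCKO* library, at least 864-fold higher, and *Ddx3y*, *Eif2s3y*, *Kdm5d* and *Uty* had UMIs only in the control library there. The induced deletion, tamoxifen itself, sex and library preparation cannot be told apart with 1 mouse each.

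Cells were grouped into clusters with the members and a list of 51 pathway genes held out, and clusters were named "-like" after marker genes. Myofibroblast-like cells numbered 2723 in the control library and 2469 in the *Gli1 HHIPCKO* library. They join alveolar myofibroblast (ALMF)-like cells, ductal myofibroblast (DMF)-like cells and a cluster that could not be split between both. ALMF-like cells numbered 1291 and 750, DMF-like cells 449 and 1703, and the cluster not split 983 and 16. AT2-like cells numbered 3319 and 2987. Naming thresholds set after the clusters had been seen left cells without a name, 11.7% in the control library and 15.7% in the other. Doublets were not removed, and a doublet score served as an alternative. It took out 8.73% and 9.69% of all cells, 52.6% and 51.6% of the unnamed cells, 1.11% and 0.134% of the AT2-like cells, and 18.1% and 8.59% of the red cell-like cells, which are used below to show free RNA and can thus hold doublets. All intervals are exact 95% intervals for counting error only (Poisson for CPM, binomial for ratios and shares) and hold no variation between mice. Log2 ratios set the *Gli1 HHIPCKO* library over the control library, and values given in pairs name the control library first.

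Transcripts of both ligand members were rare in the sorted cells. *Il6*, the founding cytokine of the family, had 90 UMIs in 59 control cells and 45 UMIs in 24 *Gli1 HHIPCKO* cells. Of these, 75 and 25 UMIs lay in an immune-like cluster led by *Ccl4*, *Ccl3*, *Ccl6* and *Tyrobp*, with 84 cells of the control library and 17 of the *Gli1 HHIPCKO* library. Within the immune-like class *Il6* was at 57.8 CPM (45.5 to 72.5) in the control library against 47.2 CPM (30.5 to 69.6) in *Gli1 HHIPCKO*, with overlapping intervals. All of these UMIs lay in that cluster, which made up a smaller part of the immune-like class in *Gli1 HHIPCKO* than in the control library. Per cell of the cluster the direction was the opposite, with 75 UMIs in 84 cells and 25 UMIs in 17 cells. Adventitial fibroblast-like cells held the next most, 9 and 10 UMIs. Alveolar fibroblast-like cells held 0 UMIs in control, which allows up to 1.56 CPM at 3 counts. They held 6 UMIs in *Gli1 HHIPCKO*, 1.04 CPM and thus below that limit, so no direction was read. In AT2-like cells *Il6* had 0 UMIs in both libraries, which allows up to 0.198 CPM in the control library against 0.177 CPM in *Gli1 HHIPCKO*.

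*Lif*, which signals through LIFR and gp130, had 25 UMIs in 24 control cells and 26 UMIs in 24 *Gli1 HHIPCKO* cells. Adventitial fibroblast-like cells held 9 and 6 of them. Alveolar fibroblast-like cells held 4 and 0, and mesothelial-like cells 0 and 5. At such counts no direction was read for *Lif*. Among the other ligands of the pathway list, *Osm* had 401 UMIs in the control library against 101 in *Gli1 HHIPCKO*, and 390 and 95 of them lay in the same immune-like cluster. That cluster had 84 and 17 cells, so per cell *Osm* was not lower in *Gli1 HHIPCKO*. A UMI of it was found in 79 and 14 of these cells. *Ctf1* had 363 and 355 UMIs and *Clcf1* 169 and 178, spread over AT2-like and mesothelial-like cells among others. *Il11*, *Cntf*, *Il27* and *Ebi3* had at most 25 UMIs in a library.

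**Figure D1:**
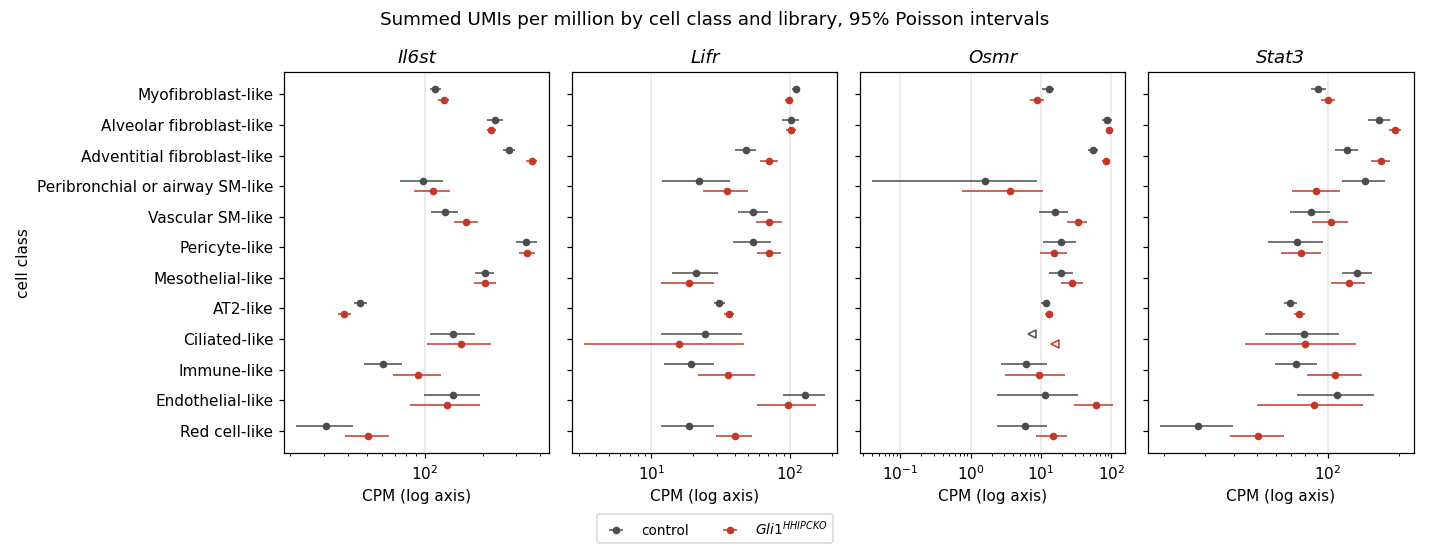
Level of the receptor chains *Il6st*, *Lifr* and *Osmr* and of *Stat3* in each cell class, as CPM of summed UMIs on a log axis, with the control library in grey and the *Gli1 HHIPCKO* library in red. Bars are exact 95% Poisson intervals, open triangles mark classes with 0 UMIs at their limit of 3 counts, and for most classes the values of both libraries lie close together.

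*Il6st* encodes gp130, the chain shared by the family. Its level was highest in pericyte-like cells of the control library, at 339 CPM, and in adventitial fibroblast-like cells of the *Gli1 HHIPCKO* library, at 361 CPM. After these 2 classes came, in both libraries, alveolar fibroblast-like cells (233 and 222 CPM) and mesothelial-like cells (205 and 207 CPM), with overlapping intervals. Schwann-like and club-like cells, few in number, were left out of this order. Pericyte-like cells had 339 and 342 CPM, and the interval of their log2 ratio, -0.21 to 0.24, spanned 0. Adventitial fibroblast-like cells had 274 CPM in the control library against 361 CPM in *Gli1 HHIPCKO* (log2 ratio 0.40, 0.26 to 0.54). AT2-like cells had 46.3 and 38.2 CPM, and the log2 ratio was -0.28 (-0.44 to -0.12). Red cell-like cells, which should lack most of these transcripts and here serve to show free RNA, had 30.6 and 50.6 CPM. The AT2-like level was above theirs beyond counting error in the control library, while the intervals overlapped in *Gli1 HHIPCKO*.

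*Il6ra* encodes the chain that binds IL6 itself. Its level was highest in alveolar fibroblast-like cells, at 102 CPM in the control library against 168 CPM in *Gli1 HHIPCKO*, followed in both libraries by mesothelial-like cells with 66.5 and 117 CPM. That step lay beyond counting error in both libraries. AT2-like cells were at the other end, with 3.37 and 2.47 CPM.

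Among whole classes with 50 or more *Il6ra* UMIs, the widest gap between the libraries was in myofibroblast-like cells. They held 153 UMIs in control, 18.7 CPM (15.8 to 21.9), and 599 UMIs in *Gli1 HHIPCKO*, 74.6 CPM (68.7 to 80.8). The log2 ratio was 2.00 (1.74 to 2.27). The difference was present in ALMF-like cells, with 18.2 and 119 CPM, and in DMF-like cells, with 17.4 and 56.9 CPM. It appeared across clusters as well. In the control library the myofibroblast-like clusters with over 50 cells had 16.4 to 21.1 CPM, and in the *Gli1 HHIPCKO* library they had 44.1 to 121 CPM, without overlap. Each of these clusters came almost wholly from 1 library, so a cluster and a library cannot be told apart here. Adventitial fibroblast-like cells had 26.7 and 70.3 CPM (log2 ratio 1.40, 0.99 to 1.81), and vascular smooth muscle-like cells had 8 UMIs in the control library against 33 in *Gli1 HHIPCKO*. Red cell-like cells had 1.70 CPM (2 UMIs) and 24.4 CPM (28 UMIs), so the *Gli1 HHIPCKO* library also held more *Il6ra* in cells that should lack it. AT2-like cells of that library were nonetheless at 2.47 CPM, below red cell-like cells.

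Cells with a UMI of both *Il6ra* and *Il6st* were counted after each cell had been thinned at random to 2000 UMIs. Of the myofibroblast-like cells 436 and 345 were too shallow for this. In alveolar fibroblast-like cells the share was 7.91% in the control library against 9.96% in *Gli1 HHIPCKO*, with overlapping intervals. In myofibroblast-like cells 14 of 2287 control cells (0.612%) and 59 of 2124 *Gli1 HHIPCKO* cells (2.78%, 2.12 to 3.57) had both. In adventitial fibroblast-like cells the shares were 2.77% and 6.64%. AT2-like cells had 0 of 2884 and 0 of 2751 cells with both chains. *Il6ra*, with or without *Il6st*, was found in 3.45% and 12.1% of the thinned myofibroblast-like cells (5.10% and 18.7% before thinning). In red cell-like cells it was found in 0 of 205 and 2.72% of 184. Their median depth before thinning was 4979 and 5261.5 UMIs against 2865 and 3092 in myofibroblast-like cells. Thinning thus took a larger part of their UMIs, free RNA included. Before thinning, red cell-like cells held 2 and 28 *Il6ra* UMIs in 215 and 198 cells. Myofibroblast-like cells held 153 and 599 in 2723 and 2469 cells.

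*Lifr* encodes the chain for LIF. Among the classes of the stromal sort its level was highest in myofibroblast-like cells, with 111 and 98.4 CPM, and in alveolar fibroblast-like cells, with 102 CPM in both libraries. The intervals of both classes overlapped in each library. The log2 ratio in myofibroblast-like cells was -0.18 (-0.32 to -0.04), while it was 0.10 in the ALMF-like subclass (130 and 139 CPM) and 0.17 in the DMF-like (73.6 and 82.7 CPM), with intervals that spanned 0. The joined class held 449 and 1703 cells of the DMF-like subclass, which had less *Lifr*, and 1291 and 750 ALMF-like cells. Its ratio thus also holds this shift between subclasses. In adventitial fibroblast-like cells *Lifr* was at 48.1 and 70.7 CPM (log2 ratio 0.56, 0.22 to 0.89). AT2-like cells had 30.9 and 36.6 CPM, near the 18.7 and 40.1 CPM of red cell-like cells.

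*Osmr* encodes the chain for oncostatin M. It was mainly a gene of fibroblasts outside the myofibroblast group, with 86.4 and 94.1 CPM in alveolar fibroblast-like cells and 55.8 and 83.2 CPM in adventitial fibroblast-like cells. Myofibroblast-like cells had only 12.8 CPM in the control library against 8.84 CPM in *Gli1 HHIPCKO*, and the log2 ratio was -0.53 (-0.99 to -0.09). Its direction there was opposite to that of *Il6ra*. DMF-like cells had 24.0 and 9.65 CPM, with a log2 ratio of -1.31 (-1.99 to -0.61). Red cell-like cells had 5.96 and 14.8 CPM, so the *Gli1 HHIPCKO* levels of both were no higher than theirs. Vascular smooth muscle-like cells had 15.7 and 33.1 CPM (log2 ratio 1.07, 0.25 to 1.94).

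*Stat3*, the transducer, varied little over the classes. In the control library it ran from 69.3 CPM in AT2-like cells to 166 CPM in alveolar fibroblast-like cells, and in the *Gli1 HHIPCKO* library from 75.7 to 194 CPM in the same classes, with red cell-like cells below at 28.1 and 50.6 CPM. Most neighbours in that order did not differ beyond counting error. In myofibroblast-like cells *Stat3* was at 91.1 and 100 CPM, and the interval of the log2 ratio, -0.00 to 0.29, reached 0. In adventitial fibroblast-like cells it was at 120 and 168 CPM (log2 ratio 0.48, 0.27 to 0.69). Peribronchial or airway smooth muscle-like cells went the other way, with 143 and 89.4 CPM and a log2 ratio of -0.68 (-1.14 to -0.22). These are transcript levels and say nothing of the phosphorylation that activates the protein.

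**Figure D2:**
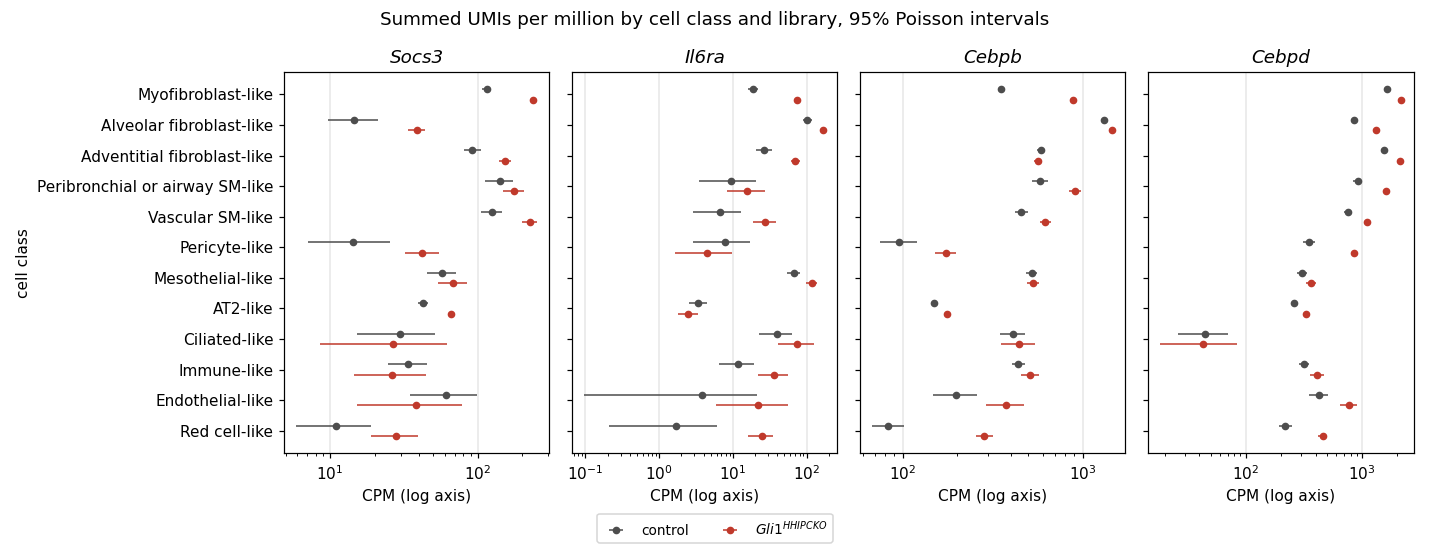
Level of *Socs3*, *Il6ra*, *Cebpb* and *Cebpd* in each cell class, as CPM of summed UMIs on a log axis, with the control library in grey, the *Gli1 HHIPCKO* library in red and exact 95% Poisson intervals as bars. In myofibroblast-like cells all 4 genes were higher in the *Gli1 HHIPCKO* library, and red cell-like cells, which show free RNA, were also higher in that library.

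*Socs3*, the inhibitor induced by STAT3, had 2704 UMIs in 1482 control cells and 5395 UMIs in 2543 *Gli1 HHIPCKO* cells. Among classes with 50 or more cells in each library, its control level was highest in 3 neighbours whose intervals overlapped. They were peribronchial or airway smooth muscle-like cells (140 CPM), vascular smooth muscle-like cells (125 CPM) and myofibroblast-like cells (115 CPM). Alveolar fibroblast-like cells (14.6 CPM) and pericyte-like cells (14.2 CPM) were as low as red cell-like cells (11.1 CPM). In *Gli1 HHIPCKO* the same 3 contractile classes led among classes of that size, with 175, 224 and 235 CPM. Schwann-like cells, under 50 in each library, stood higher, at 244 CPM (139 to 396) and 1016 CPM (799 to 1274). The classes richest in *Osmr* and *Il6ra* were thus not those richest in *Socs3*.

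In myofibroblast-like cells *Socs3* was at 115 CPM (107 to 122) in the control library against 235 CPM (225 to 246) in *Gli1 HHIPCKO*, 2.05-fold (1.89 to 2.22; log2 ratio 1.04, 0.92 to 1.15). The share of thinned cells with a UMI was 12.6% in the control library against 21.9% in *Gli1 HHIPCKO* (15.1% and 26.2% before thinning), against 1.46% and 4.35% of thinned red cell-like cells. Before thinning, the deeper red cell-like cells held 13 and 32 *Socs3* UMIs in 215 and 198 cells. Myofibroblast-like cells held 941 and 1888 in 2723 and 2469 cells. *Socs3* was concentrated in few cells. The tenth of cells with the most UMIs of the gene held 85.2% of its UMIs in the control library against 69.8% in *Gli1 HHIPCKO*. Cells with 5 or more UMIs made up 1.80% and 4.98%, and the highest count in a cell was 16 in both libraries.

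Most of this *Socs3* lay in clusters led by immediate early genes, which are induced within minutes of a stimulus, cell dissociation included. Myofibroblast cluster 6, with 347 control cells and 12 *Gli1 HHIPCKO* cells, was led by *Fos*, *Zfp36* and *Junb* and had 477 CPM (441 to 515) in the control library. Myofibroblast cluster 4, with 10 and 464 cells, was led by *Socs3* itself, *Egr1*, *Junb* and *Fos* and had 741 CPM (703 to 781) in the *Gli1 HHIPCKO* library. The other control clusters with over 50 cells had 39.2 to 40.7 CPM, and the other *Gli1 HHIPCKO* clusters had 46.8 and 101 CPM. Without clusters 4 and 6, an alternative chosen after seeing the data, the log2 ratio of the class was 0.74.

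Both clusters also lay in different myofibroblast subclasses. Cluster 6 was named ALMF-like and cluster 4 DMF-like by their markers, so the immediate early cells of the control library fell in one subclass and those of the *Gli1 HHIPCKO* library in the other. ALMF-like cells had 178 CPM in the control library against 123 CPM in *Gli1 HHIPCKO* (log2 ratio -0.53). DMF-like cells had 49.6 and 281 CPM (log2 ratio 2.50), and over 11 other settings of the analysis this ratio ran from 0.56 to 3.41. The ALMF-like value changed its sign under 6 of these settings, and a difference between ALMFs and DMFs in their *Socs3* response was not tested. Summed CPM of 16 immediate early genes moved the same way, from 10543 to 5896 in ALMF-like cells and from 4198 to 12299 in DMF-like cells. In all myofibroblast-like cells the sum was 7260 CPM in the control library against 10425 CPM in *Gli1 HHIPCKO*, with *Jun* the most abundant and 0 of 16 genes without a UMI. Of 15 measured genes of that list, 2 were 2-fold or more higher (*Fosb* and *Ier3*), against 3.07% of all genes. In DMF-like cells 10 of 15 were higher, against 3.86%, and in ALMF-like cells 6 of 15 were lower, against 1.69%. The part of these genes in the result was not tested.

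**Figure D3:**
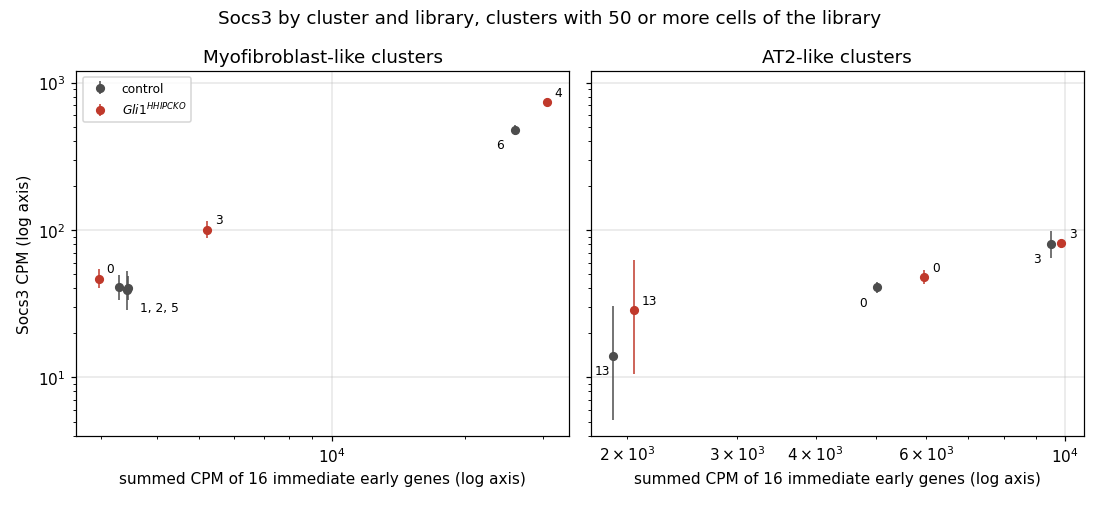
Level of *Socs3* (CPM, log axis) against the summed level of 16 immediate early genes (CPM, log axis) in myofibroblast-like clusters on the left and AT2-like clusters on the right, for the control library in grey and the *Gli1 HHIPCKO* library in red, with exact 95% Poisson intervals as bars and cluster numbers beside the points. Clusters 6 (control, 477 CPM) and 4 (*Gli1 HHIPCKO*, 741 CPM) stand apart, and AT2-like clusters 0 and 3 have close values in both libraries.

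Cells were also divided by whether they held a UMI of *Fos*. Myofibroblast-like cells with *Fos* made up 32.0% of the class in control and 37.4% in *Gli1 HHIPCKO*, and their *Socs3* level was 282 and 495 CPM, 1.75-fold (1.62 to 1.90). Cells without *Fos* had 10.5 CPM (53 UMIs) and 21.1 CPM (93 UMIs), 2.01-fold (1.42 to 2.88). *Socs3* was thus far higher in cells with *Fos*, and the ratio between the libraries was of similar size in both groups of cells. Cells with *Fos* were also deeper, with a median of 3501 and 3785.5 UMIs against 2629.5 and 2783. The level without *Fos* was no higher than that of red cell-like cells (11.1 and 27.9 CPM), so that ratio is not separable from free RNA.

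In AT2-like cells *Socs3* was at 42.8 CPM (39.6 to 46.3) in the control library against 66.4 CPM (62.5 to 70.3) in *Gli1 HHIPCKO*, 1.55-fold (1.41 to 1.71; log2 ratio 0.63). The thinned share was 8.18% and 12.2% (14.9% and 26.2% before thinning), with 435 and 236 shallower cells left out. Within the clusters with most cells the gap was smaller. AT2-like cluster 0, with 2776 control and 1331 *Gli1 HHIPCKO* cells, had 40.7 and 47.7 CPM. Cluster 3, led by *Chil1*, *Sftpa1* and *Lcn2*, with 183 and 1468 cells, had 80.0 and 81.2 CPM with overlapping intervals. Cluster 13, with 360 and 188 cells, had 13.9 and 28.6 CPM on 6 UMIs in each library. Cluster 3 came mostly from the *Gli1 HHIPCKO* library, and within each library its *Socs3* level was higher than that of cluster 0. What set the share of each library in cluster 3 was not tested. Without cluster 3, an alternative chosen after seeing the data, the log2 ratio was 0.24. Immediate early genes summed to 9502 and 9852 CPM in cluster 3 and to 5018 and 5961 CPM in cluster 0. Over the class they summed to 5259 and 8108 CPM. Of 15 measured genes, 3 were 2-fold or more higher (*Atf3*, *Klf2* and *Klf6*), against 1.37% of all genes. AT2-like cells with *Fos* made up 77.0% and 90.6% of the class. They had 48.0 and 68.9 CPM of *Socs3*, 1.44-fold (1.30 to 1.59). AT2-like cells without *Fos* had 15.4 CPM (37 UMIs) and 14.1 CPM (11 UMIs) of *Socs3*, 0.91-fold (0.42 to 1.83). That wide interval also held the ratio of the cells with *Fos*.

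In the other classes *Socs3* did not always follow the immediate early sum. Alveolar fibroblast-like cells had 14.6 and 38.5 CPM of *Socs3* (log2 ratio 1.40, 0.83 to 2.02, but 0.19 to 1.53 over the other settings), while the immediate early sum was 3811 CPM in the control library against 3251 CPM in *Gli1 HHIPCKO*. *Nr4a1* was the most abundant gene of that control sum. There 2 of 15 measured genes were 2-fold or more lower (*Nr4a1* and *Klf2*), against 2.02% of all genes. Another 1 was higher (*Ier3*), against 1.89%, and 7 of 15 were above 0. Adventitial fibroblast-like cells had 92.0 and 153 CPM of *Socs3* (log2 ratio 0.73, 0.50 to 0.97), with immediate early sums of 7375 and 7701 CPM. The same 2 genes were lower there, against 1.37%, and 9 of 15 were above 0. Pericyte-like cells had 11 and 57 UMIs of *Socs3* (log2 ratio 1.57, 0.62 to 2.65), with sums of 1629 and 2131 CPM. The *Socs3* level of alveolar fibroblast-like and pericyte-like cells (38.5 and 42.2 CPM in *Gli1 HHIPCKO*) was near that of red cell-like cells of the same library (27.9 CPM, 19.1 to 39.4). Vascular smooth muscle-like cells had 125 and 224 CPM (log2 ratio 0.84, 0.55 to 1.14). In peribronchial or airway smooth muscle-like and in mesothelial-like cells the interval of the log2 ratio spanned 0 (-0.07 to 0.72 and -0.22 to 0.71). Schwann-like cells, 26 and 25 in number, had 16 and 75 UMIs of *Socs3* in 7 and 10 cells.

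*Cebpb* encodes C/EBPβ, a transcription factor of acute phase, fat and macrophage genes. Its level was highest in alveolar fibroblast-like cells of both libraries, at 1313 and 1451 CPM, beyond the next class by more than counting error. There the log2 ratio was 0.14 (0.08 to 0.21).

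In myofibroblast-like cells *Cebpb* was at 350 CPM (338 to 363) in the control library against 881 CPM (861 to 902) in *Gli1 HHIPCKO*, 2.52-fold (2.41 to 2.63; log2 ratio 1.33). The thinned share was 37.3% and 71.1% (44.6% and 79.5% before thinning), against 8.78% and 29.3% of thinned red cell-like cells. Before thinning, the deeper red cell-like cells held 98 and 327 *Cebpb* UMIs in 215 and 198 cells. Myofibroblast-like cells held 2874 and 7080 in 2723 and 2469 cells. *Cebpb* was higher in both subclasses, with 395 and 657 CPM in ALMF-like cells (log2 ratio 0.73, and 0.39 to 1.82 over 11 other settings) and 462 and 976 CPM in DMF-like cells. Cells without *Fos* had 230 and 650 CPM, 2.82-fold (2.64 to 3.02), and cells with *Fos* had 543 and 1163 CPM, 2.14-fold (2.02 to 2.27). Without the clusters led by immediate early genes the log2 ratio was 1.49. Over the other myofibroblast-like clusters with over 50 cells, *Cebpb* ran from 177 to 433 CPM in the control library and stood at 663 and 696 CPM in the *Gli1 HHIPCKO* library. In the clusters led by immediate early genes it was at 868 CPM (control, cluster 6) and 1527 CPM (*Gli1 HHIPCKO*, cluster 4), so the clusters of both libraries overlapped for *Cebpb*, unlike for *Il6ra*.

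Among the other classes, pericyte-like cells had 95.6 and 173 CPM of *Cebpb* (log2 ratio 0.86, 0.47 to 1.25). Peribronchial or airway smooth muscle-like cells had 583 and 909 CPM (log2 ratio 0.64, 0.46 to 0.82), and vascular smooth muscle-like cells had 456 and 622 CPM. Adventitial fibroblast-like cells (585 and 565 CPM) and mesothelial-like cells (520 and 533 CPM) had ratios whose intervals spanned 0. AT2-like cells had 150 and 177 CPM (log2 ratio 0.24, 0.16 to 0.32). Red cell-like cells had 83.4 and 285 CPM (log2 ratio 1.77), so the level in AT2-like and pericyte-like cells of the *Gli1 HHIPCKO* library was below that of red cell-like cells.

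*Cebpd* encodes C/EBPδ, a factor induced by IL6 family cytokines and by glucocorticoids. Its level was highest in myofibroblast-like cells, at 1649 CPM in the control library against 2159 CPM in *Gli1 HHIPCKO*, followed by adventitial fibroblast-like cells at 1536 and 2123 CPM. That step lay beyond counting error in the control library only. The log2 ratio in myofibroblast-like cells was 0.39 (0.36 to 0.42). *Cebpd* was higher in the *Gli1 HHIPCKO* library in each of the 10 stromal, mesothelial and AT2-like classes and subclasses compared, although in DMF-like cells the direction turned under 1 alternative. The widest gap was in pericyte-like cells, with 353 and 860 CPM, 2.44-fold (2.13 to 2.79). These cells were shallow, with a median of 1714 and 1816 UMIs against 4979 and 5261.5 in red cell-like cells. They held 273 and 1162 *Cebpd* UMIs in 434 and 723 cells. Red cell-like cells held 258 and 528 in 215 and 198 cells. The part of free RNA in the pericyte-like ratio was not tested. Alveolar fibroblast-like cells had 851 and 1316 CPM (log2 ratio 0.63, 0.55 to 0.71). AT2-like cells had 261 and 331 CPM (log2 ratio 0.34, 0.28 to 0.40). Red cell-like cells had 220 and 460 CPM (log2 ratio 1.07), and their levels too were near those of AT2-like cells.

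Glucocorticoid-induced genes were also in part higher in *Gli1 HHIPCKO* in many classes, among them classes where the interval of the *Cebpb* ratio spanned 0. Summed CPM of 11 such genes was 3160 in control and 4067 in *Gli1 HHIPCKO* myofibroblast-like cells. There 5 of 11 were 2-fold or more higher (*Fkbp5*, *Sgk1*, *Mt1*, *Mt2* and *Cdkn1a*), against 3.07% of all genes. In AT2-like cells the sum was 1409 and 2760 CPM and 6 of 11 were 2-fold or more higher, against 1.37%. In alveolar fibroblast-like cells it was 2168 and 3712 CPM with 6 of 11 higher, against 1.89%. Pericyte-like cells had 1067 and 1697 CPM with 3 of 10 higher, against 1.89%. Adventitial fibroblast-like cells had 5 of 11 higher, against 1.97%, and vascular smooth muscle-like cells 4 of 11, against 2.09%. Mesothelial-like cells had 5 of 10 higher, against 1.54%, and peribronchial or airway smooth muscle-like cells 3 of 9, against 3%. Only the last class had a gene 2-fold or more lower (*Zbtb16*), against 2.45% of all genes there. The part of the list in the values of *Cebpd*, *Cebpb* and *Socs3* was not tested. *Tsc22d3* was its most abundant gene in myofibroblast-like cells, and 0 of 11 genes lacked a UMI there. Red cell-like cells had 488 and 1332 CPM of this list. Their median log2 ratio over all genes was 0.65, so part of each ratio given for them is a shift of the whole class.

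The number of members at a 2-fold ratio was read against all genes with 50 or more UMIs in the class over both libraries. The median log2 ratio of all these genes lay between -0.02 and 0.06 in each class below. In myofibroblast-like cells 3 of the 8 measured members were 2-fold or more higher in *Gli1 HHIPCKO* (*Socs3*, *Il6ra* and *Cebpb*), against 3.07% of 11082 genes, and 0 were lower, against 2.02%. In ALMF-like cells 1 of 8 members (*Il6ra*) was higher, against 2.22% of 9667 genes, and 0 were lower, against 1.69%. In DMF-like cells 3 of 8 (*Socs3*, *Il6ra* and *Cebpb*) were higher, against 3.86% of 9796 genes, and 1 (*Osmr*) was lower, against 2.37%. The members' median log2 ratio was 0.27 in the joined class, 0.17 for the ALMF-like subclass and 0.48 for the DMF-like. The members were chosen on these data, so these counts carry no weight beyond the values themselves.

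In alveolar fibroblast-like cells 1 of 8 measured members (*Socs3*) was higher, against 1.89% of 9722 genes, and 0 were lower, against 2.02%. In adventitial fibroblast-like cells 1 of 8 (*Il6ra*) was higher, against 1.97% of 9037 genes, and 0 were lower, against 1.37%. Pericyte-like cells had 2 of 6 members higher (*Socs3* and *Cebpd*), against 1.89% of 6559 genes, and 0 lower, against 0.717%. Smooth muscle and mesothelial classes had at most 1 such member. Among vascular smooth muscle-like cells it was 1 of 7 (*Osmr*), against 2.09% of 6798 genes, with 0 lower, against 0.986%. Peribronchial or airway smooth muscle-like cells had 0 of 5 higher, against 3% of 5092 genes, and 0 lower, against 2.45%. Mesothelial-like cells had 0 of 8 higher, against 1.54% of 6828 genes, and 0 lower, against 1.46%. AT2-like cells had 0 of 8 higher, against 1.37% of 11062 genes, and 0 lower, against 1.11%. The members' median was 0.19 in alveolar and 0.52 in adventitial fibroblast-like cells, 0.62 in pericyte-like cells, 0.45 and 0.32 in vascular and airway smooth muscle-like cells, 0.14 in mesothelial-like cells and 0.21 in AT2-like cells.

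The pathway list of 51 genes, which includes the members, had 34 measured genes in myofibroblast-like cells. Of these, 4 were 2-fold or more higher (*Il4ra* beside *Socs3*, *Il6ra* and *Cebpb*), against 3.07% of all genes. Another 2 were lower (*Cntfr* and *Socs1*), against 2.02%, and the median was 0.14. *Socs1* encodes another inhibitor of JAK kinases, and *Cntfr* the chain for CNTF. *Socs1* was at 14.0 CPM in the control library against 4.48 CPM in *Gli1 HHIPCKO* (log2 ratio -1.65, -2.23 to -1.09), opposite in direction to *Socs3*. In alveolar fibroblast-like cells 4 of 35 genes were higher (*Socs3*, *Saa3*, *Hp* and *Lcn2*), against 1.89% of all genes. There 1 was lower (*Socs1*), against 2.02%, with a median of 0.14. Adventitial fibroblast-like cells had 2 of 33 higher (*Il6ra* and *Steap4*), against 1.97%, and 1 lower (*Socs1*), against 1.37%, with a median of 0.31. Pericyte-like cells had 3 of 16 higher (*Socs3*, *Cebpd* and *Junb*), against 1.89%, and 0 lower, against 0.717%, with a median of 0.13. Lower *Socs1* thus recurred in the 3 fibroblast classes.

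Peribronchial or airway smooth muscle-like cells had 0 of 15 higher, against 3% of all genes, and 1 lower (*Cntfr*), against 2.45%, with a median of 0.17. Vascular smooth muscle-like cells had 2 of 25 higher (*Osmr* and *Pim1*), against 2.09%, and 0 lower, against 0.986%, with a median of 0.38. Mesothelial-like cells had 3 of 27 higher (*Cebpa*, *Lrg1* and *Lcn2*), against 1.54%, and 1 lower, against 1.46%, with a median of 0.22.

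In ALMF-like cells 1 of 30 pathway genes was 2-fold or more higher, against 2.22% of all genes. There 3 were lower, against 1.69%, with a median of -0.03. The smallest log2 ratios were those of *Socs1* (14.3 and 2.61 CPM, -2.45), *Myc* (67.3 and 20.5 CPM, -1.72) and *Junb* (1577 and 688 CPM, -1.20). The largest were those of *Il6ra* (2.71), *Cp* (110 and 193 CPM, 0.80) and *Cebpb* (0.73). *Junb* and *Myc* are immediate early genes as well as STAT3 targets. In DMF-like cells 5 of 31 were higher, against 3.86%, and 3 were lower, against 2.37%, with a median of 0.19. *Cntfr* (259 and 65.7 CPM, -1.98), *Socs1* (17.4 and 5.27 CPM, -1.72) and *Osmr* (-1.31) had the smallest log2 ratios there, and *Socs3* (2.50), *Junb* (503 and 2013 CPM, 2.00) and *Il6ra* (1.71) the largest. *Il6ra* was thus higher and *Socs1* lower in both subclasses.

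In AT2-like cells 2 of 37 pathway genes were 2-fold or more higher (*Lcn2* and *Steap4*), against 1.37% of all genes. There 1 was lower (*Myc*), against 1.11%, with a median of 0.13. *Steap4*, a metalloreductase, had 16 UMIs in the control library against 52 in *Gli1 HHIPCKO* (log2 ratio 1.54, 0.70 to 2.44). *Lcn2*, which encodes an iron-binding acute phase protein, was at 953 CPM in the control library against 2109 CPM in *Gli1 HHIPCKO* (log2 ratio 1.15, 1.12 to 1.17). *Lrg1*, another acute phase gene, was at 92.6 and 175 CPM (log2 ratio 0.92, 0.82 to 1.01). These are known targets of the pathway, and *Lcn2* was also among the leading genes of AT2-like cluster 3. Among the smallest log2 ratios were those of *Myc* (3.04 and 1.06 CPM, -1.52) and *Clcf1* (4.22 and 3.00 CPM, -0.49). *Myc* had 46 and 18 UMIs, with an interval of -2.39 to -0.70. The interval of *Clcf1*, with 64 and 51 UMIs, spanned 0 (-1.05 to 0.06).

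The genes whose pattern was most like that of each member were taken over 26 sums of 13 classes in both libraries, by Pearson correlation of log2(CPM + 1) among 12701 genes. The sums of a class share its markers and those of a library share its preparation, so these values describe and test nothing. *Socs3* was most like *Egr1* (0.83), *Fos* (0.81) and *Fam129a* (0.79). *Cebpb* was most like *Smtnl2* (0.87), *Neo1* (0.85) and *Kctd10* (0.84), and *Cebpd* like *Rab34* (0.94), *Rora* (0.93) and *Rtn2* (0.92). *Il6ra* was most like *B4galt1* (0.83), *Neo1* and *Sned1* (both 0.81), and *Il6st* like *Sptbn1* (0.90), *Ptar1* (0.89) and *Tns2* (0.88). *Neo1* was thus shared by *Il6ra* and *Cebpb*. *Lifr* was most like *E2f3* (0.84), *Shfl* and *Prrg1* (both 0.82). *Osmr* was most like *Xdh* (0.88), *Man2a1* and *Pdlim2* (both 0.87), and *Stat3* like *Txndc5* (0.88), *Arcn1* (0.85) and *Sec61a1* (0.84). *Il6* and *Lif* had under 200 UMIs and were not compared.

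Promoter sequences from RefSeq on GRCm38.p6, taken as the 250 bases before the gene start, were found for 9 of the 10 members, with no entry for *Cebpd*. They were searched on both strands for the STAT motif TTCNNNGAA and the C/EBP motif TTGCNNAA, which 7.02% and 9.56% of 32851 promoters held. *Socs3* alone among the members had a match to the STAT letters, and *Il6* alone had a match to the C/EBP letters. The *Socs3* window, chr11:117969367-117969616 on the minus strand, lies within the gene interval that GENCODE annotates from 117966079 to 117970047, upstream of the RefSeq start. Its match, chr11:117969512-117969520, lies 154 to 146 bases before that start. The *Il6* window, chr5:30012864-30013113 on the plus strand, ends at the base before the annotated gene, and its match, chr5:30012986-30012993, lies 128 to 121 bases before the start, with the motif on the other strand. Both are shown because they are the inhibitor and a ligand of the pathway, with the matches in capitals. A match describes letters in the window and not binding.
Socs3: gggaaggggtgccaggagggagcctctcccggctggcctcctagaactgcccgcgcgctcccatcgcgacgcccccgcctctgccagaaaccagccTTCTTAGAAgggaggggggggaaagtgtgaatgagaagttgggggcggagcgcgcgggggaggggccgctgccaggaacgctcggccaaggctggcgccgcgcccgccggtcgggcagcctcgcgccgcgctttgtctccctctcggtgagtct
Il6: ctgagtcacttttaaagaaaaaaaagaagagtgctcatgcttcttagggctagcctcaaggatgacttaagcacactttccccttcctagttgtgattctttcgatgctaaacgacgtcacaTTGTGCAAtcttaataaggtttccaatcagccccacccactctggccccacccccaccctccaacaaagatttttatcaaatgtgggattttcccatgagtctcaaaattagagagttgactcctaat

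In myofibroblast-like cells of the *Gli1 HHIPCKO* library *Il6ra* was higher across clusters, *Cebpb* was higher in both subclasses, *Cebpd* was moderately higher, and *Socs3* was higher with most of its UMIs in cells rich in immediate early genes. *Il6st*, *Lifr* and *Stat3* differed little there, and *Osmr* was lower, at a *Gli1 HHIPCKO* level no higher than in red cell-like cells. The ligands *Il6* and *Lif* were rare, and most *Il6* UMIs lay in immune-like cells, which the sort was set to remove. With 1 mouse in each group, of different sex and with different treatment, the differences describe these libraries, and summed levels of immediate early and glucocorticoid-induced genes were higher in the *Gli1 HHIPCKO* library in several classes too.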

How the data were processed

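Droplet single-cell libraries of 1 control and 1 *Gli1 HHIPCKO* mouse were used. Per the file headers, the authors counted UMIs with Cell Ranger 6.1.0 (the submitters' notes name 3.1.0) on mm10, and the deposited values are raw counts per gene and cell. The members and all gene lists were chosen with earlier results of these data known.

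The filter asked for 200 to 6000 genes per cell and for a mitochondrial share of UMIs up to 10%. It left out 82 control and 235 *Gli1 HHIPCKO* cells. Counts were scaled to 10000 UMIs per cell. Both libraries were clustered together without integration, on 2000 variable genes, 30 principal components and 20 neighbours, by Leiden clustering at resolution 1 (seed 1). Myofibroblast and airway clusters were clustered again. Clusters were named by marker scores, partly from the study's own signatures. The naming thresholds were set and revised after the clusters, with their values for the members, had been seen. The rule as first set is given as an alternative chosen after seeing the data. In all, 17 clusters stayed unnamed, and these names can differ from those of the study.

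UMIs were summed per class and library and given as CPM with exact intervals. A ratio needed 50 UMIs over both libraries for counts of genes at 2-fold. A count of 0 was given the limit of 3 counts. Classes with under 50 cells in a library, Schwann-like and club-like cells, entered no ratio and no order of classes by level.

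Named genes were the 10 members in every class, the pathway genes at both ends of the log2 ratios (3 each) in the AT2-like class and in both myofibroblast subclasses, and for each member with 200 or more UMIs the 3 genes of most like pattern. Pathway genes named in other classes are those past 2-fold, and leading genes of clusters were picked once their values were known. Some pathway genes that this rule would name are not reported here.

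The alternatives changed the cell filter, doublets, the resolution, joint clustering, the genes held out, naming, the depth, the scaling, how cells were averaged and what was counted in the total. The scripts ran under python 3.11.15 with leidenalg 0.10.2, scipy 1.17.1 and igraph 0.11.9, numpy 2.4.6 and pandas 2.3.3. Figures were drawn with matplotlib 3.10.9.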

Additional observations from a re-analysis of the deposited data

How the results depend on the processing

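No paired analysis was possible because each group was 1 mouse. Over 11 other settings of the analysis the log2 ratios in myofibroblast-like cells ran from 1.00 to 1.12 for *Socs3*, 1.69 to 2.05 for *Il6ra*, 1.31 to 1.41 for *Cebpb* and 0.34 to 0.41 for *Cebpd*. Those of *Socs3* in AT2-like cells ran from 0.61 to 0.68. Numbers of pathway genes at 2-fold or more are given as higher or lower in *Gli1 HHIPCKO*. They were 4 and 2 (myofibroblast), 1 and 3 (ALMF), 5 and 3 (DMF), 4 and 1 (alveolar fibroblast), 2 and 1 (adventitial fibroblast), 0 and 1 (peribronchial or airway smooth muscle), 2 and 0 (vascular smooth muscle), 3 and 1 (mesothelial) and 2 and 1 (AT2). With no cell filter *Socs3* in ALMF-like cells turned from -0.53 to 0.93, with 3 ALMF genes higher and 1 lower. With doublets left out it was 1.20, with 3 ALMF and 3 DMF genes higher, 0 adventitial genes lower, 1 peribronchial gene higher and 2 lower, and 0 mesothelial genes lower. At resolution 0.5 it was 0.05 and *Cebpb* in myofibroblast-like cells was 1.41, with 1 myofibroblast gene lower, 2 ALMF genes higher and 0 lower, and 0 mesothelial genes lower. With each library clustered on its own *Socs3* in ALMF-like cells was 1.22, with 3 ALMF genes higher, 2 alveolar genes higher and 4 lower, 0 adventitial genes higher, 1 vascular gene higher and 1 lower, and 0 mesothelial genes lower. With no gene held out 2 alveolar genes were lower and 1 adventitial gene higher. With immediate early and glucocorticoid lists also held out *Socs3* was 1.48 in ALMF-like cells, *Cebpd* fell to -0.083 in DMF-like cells, and *Il6ra* was 1.69 and *Cebpd* 0.34 in myofibroblast-like cells. There 1 myofibroblast gene was lower, 6 ALMF genes, 1 DMF gene and 0 mesothelial genes higher. With each cell named on its own *Socs3* was 1.11 in ALMF-like cells, and *Cebpb* was 0.40 and *Cebpd* 0.43 in AT2-like cells. Higher were 3 ALMF, 1 alveolar, 2 peribronchial, 1 vascular and 1 mesothelial genes, and lower 1 ALMF, 2 peribronchial, 2 mesothelial and 0 AT2 genes. With the mean over cells *Stat3* in AT2-like cells was -0.023, with 1 adventitial gene higher and 0 mesothelial genes lower. With each cell thinned 2 alveolar, 0 vascular, 1 mesothelial and 1 AT2 genes were higher, and 0 alveolar, 0 adventitial, 2 peribronchial, 0 mesothelial and 0 AT2 genes lower. Of the alternatives chosen after seeing the data, leaving out the clusters led by immediate early genes gave 0.74 for *Socs3*, 1.49 for *Cebpb* and 0.43 for *Cebpd* in myofibroblast-like cells and 1.33 for *Socs3* in ALMF-like cells, with 4 ALMF genes and 1 DMF gene higher. Leaving out the AT2-like cluster led by *Lcn2* and *Chil1* gave 0.24 for *Socs3* and -0.052 for *Stat3* in AT2-like cells, with 1 AT2 gene higher and 0 lower. The naming rule as first set moved none of these and gave no mesothelial-like class.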
